A study of Mus musculus with 9 samples.

Results

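The genes described here are 10 markers of pericytes and smooth muscle: Rgs5, Kcnj8, Pdgfrb and Cspg4, which mark pericytes, and Acta2, Tagln, Myl9, Cnn1, Myh11 and Des, which build the contractile apparatus of smooth muscle. They were listed by name, matched by symbol to the deposited table, and all 10 were found among its 54453 Ensembl genes. Each is a protein-coding gene, and all 10 passed the filter on low counts that left 16169 genes to test. The data are mRNA sequencing of 9 frozen pancreatic tumors, taken whole, from KPC mice, a strain that develops pancreatic ductal adenocarcinoma. Tumors in this strain are generally known to be started by a Cre recombinase made in the pancreas, and the labels do not give the promoter of the Cre. The series compared 4 tumors labelled Scrib WT (numbered 2, 3, 6 and 9, genotype KPF/+C) with 5 labelled Scrib null (numbered 7, 14, 15, 18 and 23, genotype KPF/+CSF/F), so both groups share the KPF/+C background and differ in Scrib, a scaffold of epithelial polarity. The labels give no age, treatment or pooling, and do not tie tumors to individual mice, so a p-value here speaks only of spread among the 9 tumors. If F marks a floxed allele, Scrib was deleted only in cells that had made the Cre, and not in other cells of the tumor.

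Mural cells wrap blood vessels. Pericytes sit on capillaries, where platelet-derived growth factor B from the endothelium holds them through its receptor PDGFRβ, and smooth muscle cells ring arterioles, arteries and veins, which they narrow by sliding smooth muscle actin along myosin. Most contractile genes are switched on by serum response factor, SRF, and its partners of the myocardin family, which bind a DNA element called the CArG box. In pancreatic cancer some of these contractile genes, among them Acta2, Tagln and Myl9, are also made by activated fibroblasts (myofibroblasts) of the dense stroma, as is Pdgfrb. In whole tumors such genes therefore do not report on vessels alone.

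Total estimated counts per tumor ranged from 10145830 to 27596832. Tumors WT 3 and null 7 stood apart over all tested genes, with a median root mean square difference from the other tumors of 1.41 and 1.4 log2 CPM (estimated counts scaled by TMM-adjusted library size), against 0.98 to 1.15 for the other 7. Scrib mRNA overlapped between groups: WT tumors had 70.5 ± 21.4 CPM (SD, n = 4) and null tumors 60.3 ± 24.6 CPM (SD, n = 5) (log2 fold change -0.23, SE 0.31, edgeR quasi-likelihood adjusted p = 0.712), and null 7 held the highest level, 102.2 CPM. Directions given here are therefore between tumors as labelled. Epithelial markers, summed over 10 genes, gave 8767 to 12510 CPM in WT tumors, against 7296 to 13860 CPM in null tumors.

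Promoter sequence was looked up for the members in RefSeq (GRCm38.p6), and 7 of 10 matched: Rgs5, Kcnj8, Cspg4, Acta2, Myl9, Cnn1 and Des. Each window ran from 250 bases before the start of transcription to 50 after it. The CArG box was searched on both strands, first in full and then with 1 G or C allowed among the A and T bases of its centre, a wider form that includes every full match. A full box was found in the window of Myl9 alone among the 7, and in 1.63% of all 32851 windows. The wider form was found in Acta2 and Myl9, and in 9.98% of windows. The motif CATTCC, bound by TEAD factors, was found (either strand) in the window of Acta2 and in 14.7% of windows. The CATTCC match of Acta2, at -146 to -141, is not shown. No match to any of these motifs was found for Rgs5, Kcnj8, Cspg4, Cnn1 or Des. The 3 stretches with CArG matches are shown because Acta2 and Myl9 were the pair of members most alike across tumors (0.361, by the measure given below). Des was nearly as alike to Myl9 (0.401) and Acta2 (0.426), so matches did not follow likeness. The stretch of Rgs5 is shown beside them as an example without a match. Each is written 5′ to 3′ on the strand of its gene, with CArG matches in capitals. The Myl9 stretch is chr2:156775214-156775419 (plus strand, from 250 to 45 bases before the start), with a full box at -161 to -152 and the wider form at -99 to -90. The Acta2 stretches are chr19:34255438-34255467, with its match at -84 to -75, and chr19:34255388-34255417, with its match at -34 to -25 (minus strand; both lie in the first exon of an Acta2 transcript that starts further upstream in GENCODE M21). The Rgs5 stretch is chr1:169655251-169655500 (plus strand, the whole 250 bases before the start). A match describes the letters only.
Myl9: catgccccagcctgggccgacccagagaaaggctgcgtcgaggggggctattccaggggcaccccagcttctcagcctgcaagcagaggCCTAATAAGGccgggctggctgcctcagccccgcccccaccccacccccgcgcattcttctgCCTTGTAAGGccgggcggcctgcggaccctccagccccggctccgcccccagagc
Acta2 upstream: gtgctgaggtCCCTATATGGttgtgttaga
Acta2 near the start: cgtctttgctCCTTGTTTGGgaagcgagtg
Rgs5: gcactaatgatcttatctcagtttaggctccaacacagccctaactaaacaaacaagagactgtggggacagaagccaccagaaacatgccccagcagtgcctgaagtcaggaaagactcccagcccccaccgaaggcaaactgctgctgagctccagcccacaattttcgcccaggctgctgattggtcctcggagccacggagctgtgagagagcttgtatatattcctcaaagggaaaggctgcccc

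All 10 genes had lower mean levels in the tumors labelled Scrib null than in those labelled WT, but none passed the test. A log2 fold change below 0 was found for 10 of 10 members and for 52.2% of all genes. The log2 fold changes, null over WT, ran from -1.42 for Myh11 to -0.58 for Pdgfrb, with a median of -1.09, against a median of -0.03 over all genes tested. By edgeR's quasi-likelihood test with Benjamini-Hochberg adjustment over all genes, 0 of 10 members were called (adjusted p from 0.222 to 0.559), where 0.0124% of all genes were called lower. DESeq2 and limma-voom also called 0 of 10, against 3.39% and 0.0124% of all genes in either direction. At an unadjusted edgeR p under 0.05, 4 of 10 members were lower (Rgs5, Kcnj8, Tagln and Myl9) and 0 higher, beside 10.0% of all genes lower and 7.64% higher. That count was 1 without WT 9, null 14 or null 15, and 2 without WT 6 or null 18. Fewer mural or stromal cells in a tumor and less of these RNAs per cell cannot be told apart in whole tissue. Of the fibroblast markers 12 of 12, and of the endothelial markers 11 of 12, also had a log2 fold change below 0, and their part in the members' difference was not tested.

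**Figure D1:**
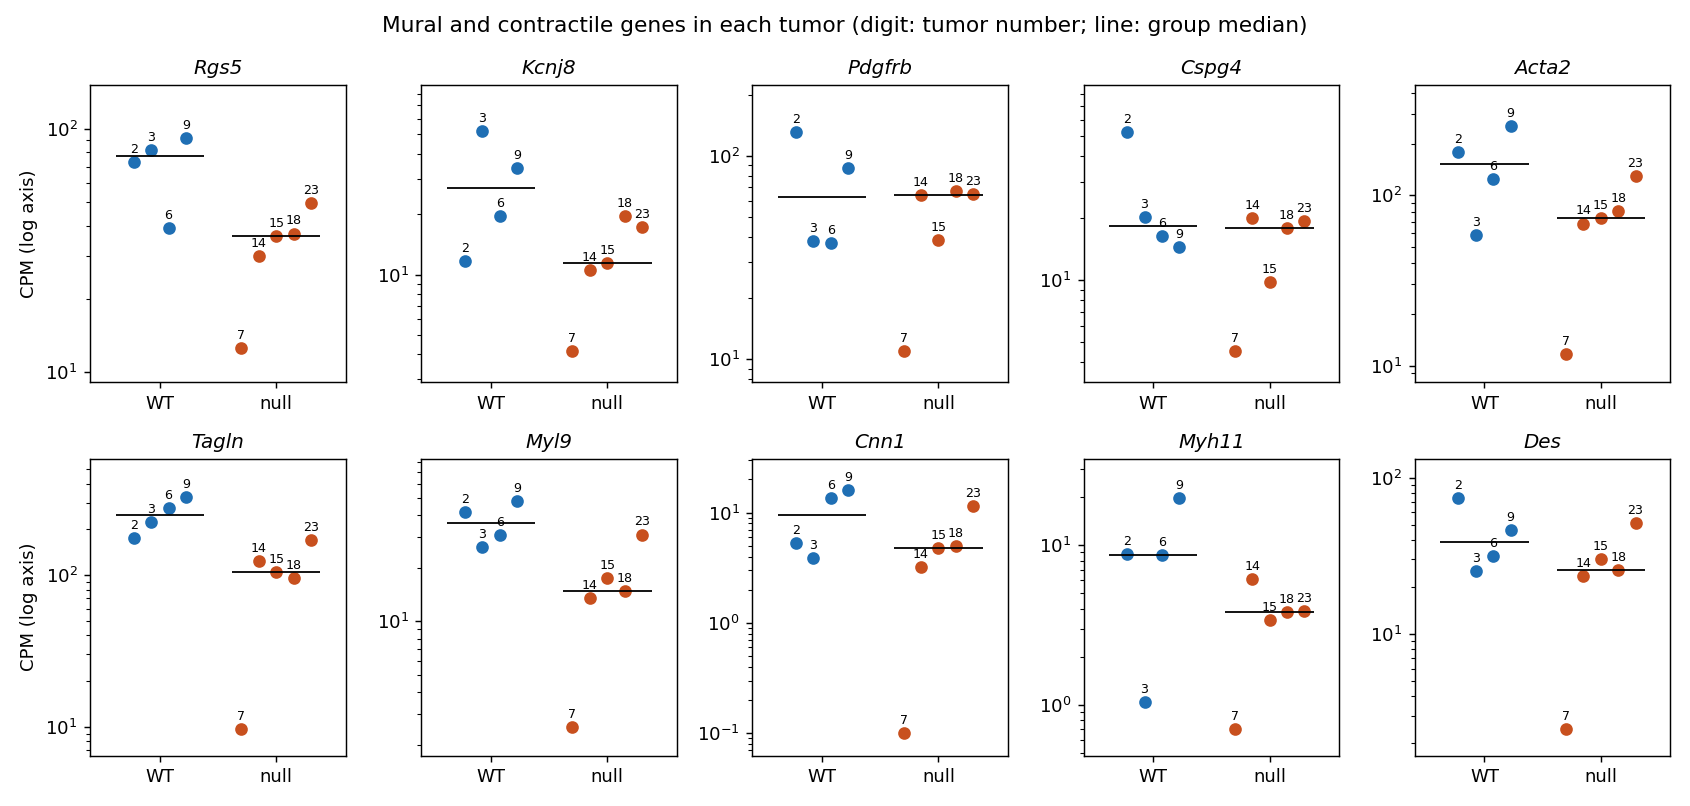
Level of each of the 10 genes in CPM (vertical log axis) in the 4 tumors labelled WT (blue) and the 5 labelled null (orange); digits are tumor numbers and black lines group medians. Null 7 is the lowest point in every panel, and Tagln is the gene whose groups do not overlap.

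Among the pericyte genes, Rgs5 encodes a regulator of G-protein signalling that is a widely used marker of pericytes (ENSMUSG00000026678, chromosome 1, 169655501 to 169695813). It had 73.1, 82.0, 39.3 and 91.6 CPM in tumors WT 2, 3, 6 and 9, and 12.6, 29.9, 36.2, 37.1 and 49.7 CPM in tumors null 7, 14, 15, 18 and 23. Of the WT tumors WT 6 alone lay within the null range, and the other 3 lay above every null tumor. The means were 71.5 ± 22.8 CPM (SD, n = 4) and 33.1 ± 13.5 CPM (SD, n = 5), a log2 fold change of -1.11 (SE 0.37, edgeR adjusted p = 0.222). Rgs5 had the smallest p of the 10, and its 95% confidence interval ran from 0.264-fold to 0.812-fold.

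Kcnj8 encodes Kir6.1, the pore of the ATP-sensitive potassium channel of mural cells (ENSMUSG00000030247, chromosome 6, 142564837 to 142571614). It had 11.7, 51.9, 19.7 and 34.2 CPM in the WT tumors and 4.14, 10.6, 11.4, 19.7 and 17.4 CPM in the null tumors, in the order given for Rgs5. WT 2 lay within the null range, WT 6 was level with null 18, the highest null tumor, and WT 3 stood highest. The log2 fold change was -1.22 (SE 0.49, edgeR adjusted p = 0.251), -0.75 without WT 3, and -0.53 without tumors WT 3 and null 7 (edgeR adjusted p = 0.608).

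Pdgfrb encodes the receptor that recruits pericytes to vessels and is also borne by fibroblasts (ENSMUSG00000024620, chromosome 18, 61045150 to 61085061). Its levels were 131, 38.1, 37.2 and 87.5 CPM in the WT tumors and 10.9, 63.9, 38.5, 66.9 and 64.8 CPM in the null tumors. WT 3 and WT 6 lay below 4 of the 5 null tumors, so the groups overlapped widely. Its log2 fold change of -0.58 (SE 0.52, edgeR adjusted p = 0.559) was the smallest of the 10, and was -0.30 without null 7 and -0.14 when WT 2 was left out.

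Cspg4 encodes NG2, a proteoglycan on the surface of pericytes and of glial precursors (ENSMUSG00000032911, chromosome 9, 56865033 to 56899870). It had 52.2, 20.2, 16.3 and 14.5 CPM in the WT tumors and 4.54, 20.1, 9.82, 17.9 and 19.3 CPM in the null tumors. WT 2 stood alone at the top, WT 3 was level with null 14, the highest null tumor, and WT 6 and WT 9 lay within the null range. The log2 fold change of -0.84 (SE 0.50, edgeR adjusted p = 0.376) was -0.24 without WT 2.

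Among the contractile genes, Tagln (SM22α, an actin-binding protein that appears early in smooth muscle and in myofibroblasts; ENSMUSG00000032085, chromosome 9, 45929619 to 45936058) was the one member whose groups did not overlap. It had 174, 224, 274 and 326 CPM in the WT tumors and 9.59, 124, 104, 95.3 and 170.2 CPM in the null tumors. The lowest WT tumor, WT 2, lay just above the highest null tumor, null 23. No overlap in this direction was seen for 1 of 10 members and for 3.49% of all genes. The means were 250 ± 65.6 CPM (SD, n = 4) and 101 ± 58.6 CPM (SD, n = 5), with a log2 fold change of -1.31 (SE 0.57, edgeR adjusted p = 0.273). Without null 7 the log2 fold change was -1.001 (SE 0.27, edgeR adjusted p = 0.265).

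Acta2, smooth muscle actin itself (ENSMUSG00000035783, chromosome 19, 34241090 to 34255590), had 179, 58.2, 124 and 254 CPM in the WT tumors and 11.7, 68.3, 73.7, 81.2 and 130.5 CPM in the null tumors. WT 3 lay below 4 of the 5 null tumors, while WT 2 and WT 9 lay above all of them. The log2 fold change was -1.07 (SE 0.57, edgeR adjusted p = 0.337).

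Myl9, the regulatory light chain of smooth muscle myosin (ENSMUSG00000067818, chromosome 2, 156775420 to 156781658), had 41.4, 26.2, 30.6 and 47.8 CPM in the WT tumors and 2.52, 13.6, 17.6, 14.9 and 31.0 CPM in the null tumors. The overlap came from null 23, which lay above WT 3 and WT 6, while the other 4 null tumors lay below all WT tumors. The log2 fold change was -1.20 (SE 0.52, edgeR adjusted p = 0.270).

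Cnn1, calponin, which binds actin and holds back myosin (ENSMUSG00000001349, chromosome 9, 22099216 to 22109630), had 5.35, 3.87, 13.5 and 16.0 CPM in the WT tumors and 0.101, 3.21, 4.79, 4.95 and 11.4 CPM in the null tumors. The value in null 7 rested on 2 estimated counts. The fit gave Cnn1 the widest confidence interval of the 10, from 0.140-fold to 1.82-fold (log2 fold change -0.98, SE 0.84, edgeR adjusted p = 0.537). For Cnn1 the log2 fold change was -0.63 without WT 9, -0.65 without null 7 and -1.57 without null 23.

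Myh11, the heavy chain of smooth muscle myosin and a marker of mature smooth muscle (ENSMUSG00000018830, chromosome 16, 14194535 to 14291372), had 8.79, 1.03, 8.66 and 19.7 CPM in the WT tumors and 0.706, 6.10, 3.39, 3.80 and 3.88 CPM in the null tumors. WT 3, at 12 estimated counts, lay with null 7 at the bottom, and the other 3 WT tumors lay above all null tumors. The log2 fold change was -1.42 (SE 0.72, edgeR adjusted p = 0.320), the most negative of the 10, and the WT tumors differed 19.1-fold among themselves. Without WT 9 it was -0.79, and Kcnj8 (-1.13) and Tagln (-1.15), among others, were then more negative.

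Des, desmin, the intermediate filament of muscle cells (ENSMUSG00000026208, chromosome 1, 75360329 to 75368579), had 74.3, 25.2, 31.4 and 46.0 CPM in the WT tumors and 2.47, 23.4, 30.0, 25.5 and 50.9 CPM in the null tumors. Leaving null 7 aside, null 23 exceeded 3 of the 4 WT tumors and WT 3 lay below null 15 and null 18. The log2 fold change was -0.74 (SE 0.62, edgeR adjusted p = 0.529). For Des this fold change was -0.37 without WT 2, -0.42 without null 7 and -1.12 without null 23.

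Levels of different genes were compared per kilobase of annotated exon, in CPM per kb averaged over the 9 tumors. Tagln (83.9) and Acta2 (49.6) led, followed by Myl9 (21.6), Rgs5 (11.03), Pdgfrb (10.9), Des (9.15), Kcnj8 (7.88), Cnn1 (2.57), Cspg4 (1.63) and Myh11 (0.819). The span from Myh11 to Tagln was 102-fold. In the WT group alone the means ± SD (n = 4) were 126 ± 33.0 for Tagln, 70.0 ± 37.8 for Acta2, 31.4 ± 8.49 for Myl9, 15.7 ± 5.01 for Rgs5, 13.4 ± 8.25 for Pdgfrb, 11.8 ± 5.83 for Des, 11.5 ± 6.92 for Kcnj8, 3.54 ± 2.18 for Cnn1, 2.16 ± 1.49 for Cspg4 and 1.25 ± 1.01 for Myh11. Neighbours in this order differed by less than the larger of their SDs from Rgs5 to Kcnj8 and from Cnn1 to Myh11, and by more than it at the other 4 steps. The genes of early smooth muscle and myofibroblasts (Tagln, Acta2, Myl9) were thus more abundant per length than the markers of mature smooth muscle (Cnn1, Myh11).

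Tumor null 7 had the lowest level of all 9 tumors for 10 of 10 members, a place it took for 20.7% of all genes. Relative to each gene's mean over the 9 tumors, the log2 CPM in null 7 was lower by a median of -1.87 over the 4 pericyte genes and -3.15 over the 6 contractile genes, and ranged from -1.78 for Rgs5 to -4.56 for Cnn1. The contractile genes were thus further below their means in that tumor than the pericyte genes, by values that describe 1 tumor and carry no test. The next lowest null tumor held 2.16 times (Cspg4) to 9.94 times (Tagln) the level of null 7 over the members other than Cnn1. Null 7 was also the lowest tumor in summed fibroblast markers (410.5 CPM, against 3703 to 4843 in the other null tumors), endothelial markers (107 CPM, against 369 to 486) and epithelial markers (7296 CPM, against 10980 to 13860).

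**Figure D2:**
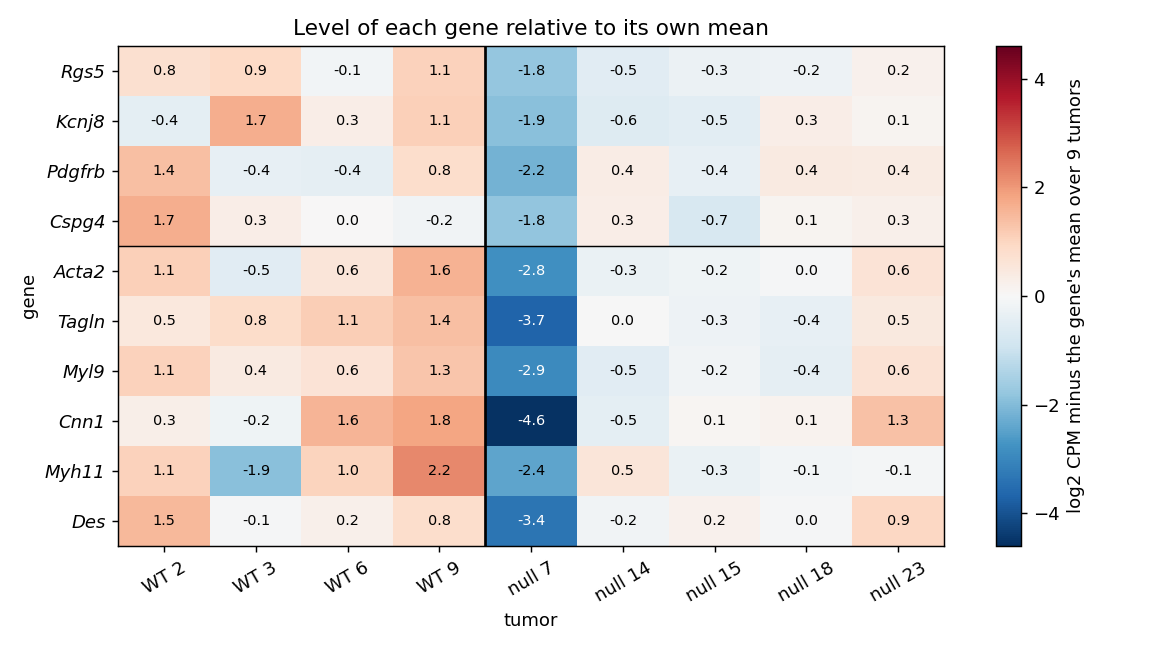
Log2 CPM of each gene minus its own mean over the 9 tumors (colour and printed value), with pericyte genes in the upper block, contractile genes in the lower block, WT tumors on the left and null tumors on the right. Null 7 is below the mean for all 10 genes, down to -4.6 for Cnn1, and WT 3 is above it for Kcnj8 (1.7) and below it for Myh11 (-1.9).

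Without null 7 the direction held for 10 of 10 members, where 52.3% of all genes had a log2 fold change below 0. The members' log2 fold changes then ran from -1.12 for Myh11 to -0.30 for Pdgfrb, with a median of -0.83 against -0.04 over all genes tested. None passed (edgeR adjusted p from 0.265 to 0.711, with 0% of all genes called lower), and 3 of 10, Rgs5, Tagln and Myl9, were lower at an unadjusted p under 0.05, beside 8.61% of all genes. Leaving out null 7 narrowed the intervals: the SE of Tagln went from 0.57 to 0.27 and that of Myl9 from 0.52 to 0.31. Without both WT 3 and null 7, 10 of 10 were again below 0 (51.1% of all genes), with a median of -0.85 against -0.01 over all genes. Again 0 of 10 were called (edgeR adjusted p from 0.316 to 0.632), and 5 of 10, namely Rgs5, Acta2, Tagln, Myl9 and Myh11, had an unadjusted p under 0.05, beside 6.59% of all genes lower.

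**Figure D3:**
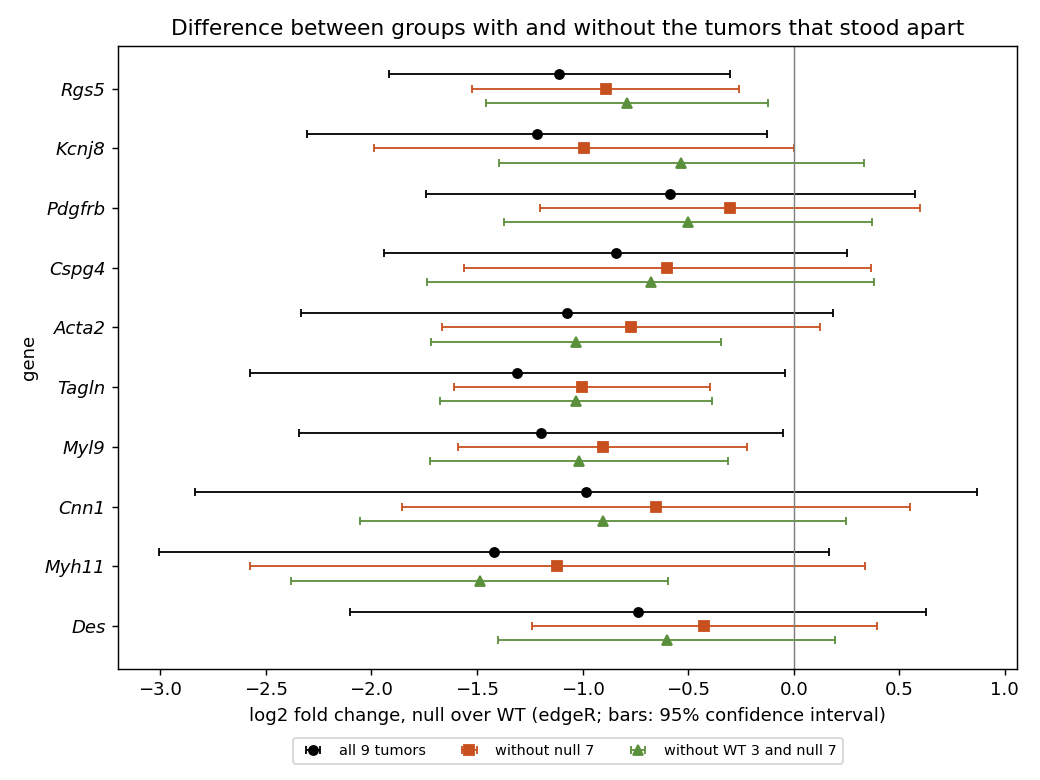
Log2 fold change, null over WT, of each gene from the edgeR fit (horizontal axis; bars are 95% confidence intervals) in all 9 tumors (black), without null 7 (orange) and without WT 3 and null 7 (green). All 30 estimates lie below 0, between -1.49 and -0.30, and the intervals of Tagln, Myl9 and Rgs5 stay below 0 in the 3 fits.

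The members did not vary as 1 block among the WT tumors. WT 9 held the highest level of all 9 tumors for 6 members (Rgs5 and every contractile gene but Des), WT 2 for Pdgfrb, Cspg4 and Des, and WT 3 for Kcnj8. In WT 3 the pericyte genes lay a median of 0.62 above their means on the log2 scale and the contractile genes -0.14 from theirs, with Kcnj8 at 1.69 and Myh11 at -1.92. In WT 6 the order was the other way round, with the pericyte genes at -0.07 and the contractile genes at 0.84. Among the null tumors other than null 7, null 23 was the highest for Rgs5 and for every contractile gene but Myh11, with contractile genes at 0.64, while null 14, 15 and 18 had them at -0.24, -0.18 and -0.09. These medians order tumors and carry no test.

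Likeness between 2 genes was measured as the root mean square difference of their log2 CPM over the 9 tumors, each gene first centred on its own mean, so that a small value means levels that moved by like amounts in the same tumors. Over the 45 pairs of members the most alike were Acta2 and Myl9 (0.361), Myl9 and Des (0.401), Acta2 and Des (0.426), and Tagln and Myl9 (0.436). Within the pericyte genes the closest pairs were Pdgfrb with Cspg4 (0.477) and Rgs5 with Kcnj8 (0.535). Kcnj8 and Myh11 were the least alike (1.45). All of these values share the low point of null 7.

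Among 12174 other genes, those most like Acta2 were Sulf1 (0.253), which trims heparan sulfate outside cells, Zfp521 (0.284), Dsel (0.289), Fstl1 (0.323), a secreted glycoprotein, and Armcx3 (0.324). The median over those 12174 genes was 1.285. The nearest to Des were Rhoj (0.282), a small GTPase, Mamld1 (0.288), Cpxm1 (0.299), Pde3a (0.301), a cyclic nucleotide phosphodiesterase of smooth muscle and heart, and Colec12 (0.312), against a median of 1.39. The nearest to Rgs5 were Rab8b (0.165), the cannabinoid receptor gene Cnr2 (0.211), Naip2 (0.212), an inflammasome sensor, Creg1 (0.216) and Arhgap25 (0.222), against a median of 0.969. These genes were picked for the smallest values, so lying below the median carries no test. The values also include null 7, where centred log2 CPM was -2.83 for Acta2, -3.37 for Des and -1.78 for Rgs5.

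Ratios within a tumor of Rgs5 to Pecam1 and of Acta2 to Col1a1 asked whether a member differed from a gene of a neighbouring compartment. The ratio of Myh11 to Rgs5 set a marker of mature smooth muscle against a pericyte marker, both members. The log2 ratio of Rgs5 to Pecam1, which marks endothelium, was 0.58, 0.32, -0.29 and -0.42 in the WT tumors and 0.53, -0.79, 0.06, -0.06 and 0.11 in the null tumors. The groups overlapped, and in null 7, where both genes were low, the ratio was among the highest. The means, 0.05 ± 0.48 (SD, n = 4) and -0.03 ± 0.48 (SD, n = 5), differed by -0.08, less than the spread (two-sided exact permutation test, p = 0.810, or 0.976 after Benjamini-Hochberg adjustment over the 3 ratios). With 126 splits of the tumors, p cannot fall below 0.00794. Pecam1 itself had 71.2 ± 34.96 CPM in WT tumors, against 36.0 ± 16.6 CPM in null tumors (log2 fold change -0.98, edgeR adjusted p = 0.290).

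The log2 ratio of Acta2 to Col1a1, a collagen made by fibroblasts, was -4.32, -2.59, -2.38 and -3.15 in the WT tumors and -3.58, -4.40, -4.00, -4.06 and -3.20 in the null tumors. WT 3, 6 and 9 lay above all null tumors and WT 2 lay near the bottom. The difference of -0.74 did not pass (two-sided exact permutation test, p = 0.143, adjusted 0.429). Without WT 2, the WT tumor with the lowest ratio, it was -1.14 (exact permutation p = 0.0357, not adjusted). Leaving out any other single tumor gave an exact permutation p from 0.114 to 0.321. The smaller p thus depends on which tumor is left out, and no conclusion is drawn from it. The log2 ratio of Myh11 to Rgs5 was -3.04, -6.19, -2.17 and -2.21 in the WT tumors and -3.99, -2.27, -3.38, -3.26 and -3.65 in the null tumors, with WT 3 far below the rest. Its group difference of 0.10 (two-sided exact permutation test, p = 0.976, adjusted 0.976) turned to -0.83 without WT 3.

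**Figure D4:**
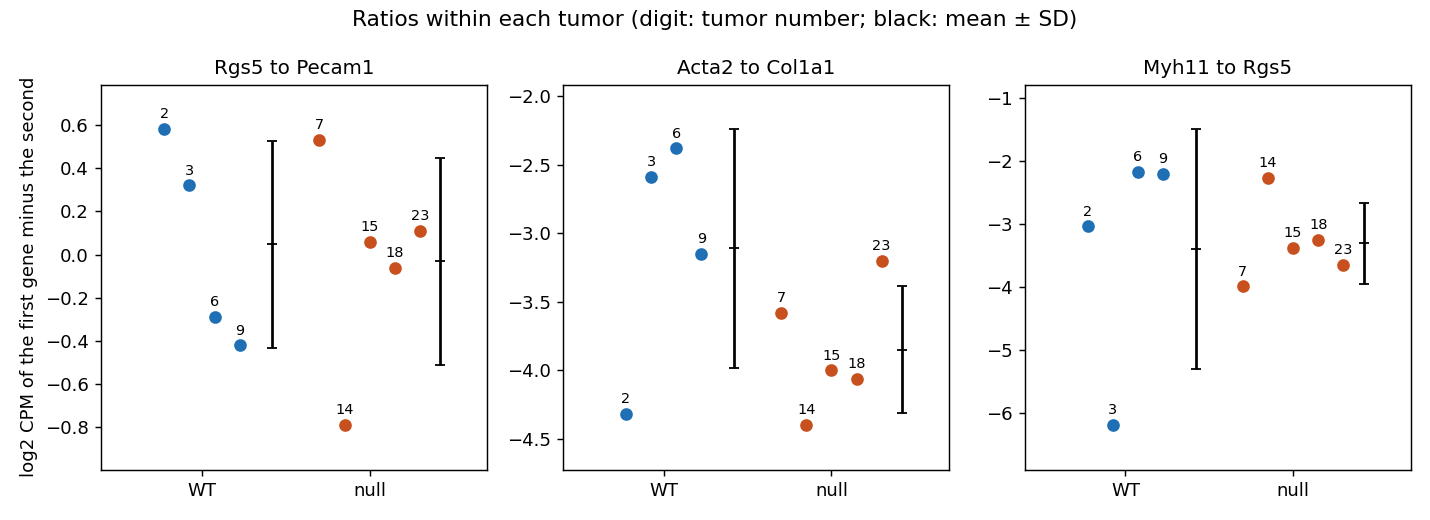
Log2 CPM of 1 gene minus that of another in the same tumor (vertical axis) for 3 pairs, in WT (blue) and null (orange) tumors; digits are tumor numbers and black bars the mean ± SD. The groups overlap in each panel, with means of 0.05 and -0.03 for Rgs5 to Pecam1, -3.11 and -3.85 for Acta2 to Col1a1, and -3.40 and -3.31 for Myh11 to Rgs5.

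Other genes of the same cells were read from lists of textbook markers, whose counts stand beside 10.0% of all genes lower at an unadjusted edgeR p under 0.05 (8.61% without null 7) and 52.2% with a log2 fold change below 0. Of 12 further pericyte genes, all tested, 11 had a log2 fold change below 0, with a median of -0.78. By edgeR 0 of 12 were called, as by DESeq2 and limma-voom, and 3 were lower at an unadjusted p under 0.05: Anpep, an aminopeptidase also found on fibroblasts (-1.12), Higd1b (-1.57) and the adhesion molecule Mcam (-0.87). Without null 7, 2 of 12 were lower at that threshold and the median was -0.52. The 1 gene above 0 was Notch3, chosen for mention after its values were seen, a receptor that directs smooth muscle fate, with 17.8 ± 10.5 CPM (SD, n = 4) in the WT and 31.0 ± 6.03 CPM (SD, n = 5) in the null group.

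The further contractile genes had no common direction. Of 20 listed genes 19 were tested, 9 had a log2 fold change below 0 and 10 above, and the median was 0.00. By edgeR, DESeq2 and limma-voom 0 were called, with 3 lower and 1 higher at an unadjusted edgeR p under 0.05. The lower ones were Actg2, enteric smooth muscle actin, from 26.9 ± 17.2 CPM (SD, n = 4) in the WT to 8.01 ± 4.74 CPM (SD, n = 5) in the null group (-1.75, edgeR adjusted p = 0.221), Lmod1, a nucleator of actin in smooth muscle (-2.05, edgeR adjusted p = 0.225), and the light chain Myl6 (-0.73, edgeR adjusted p = 0.244). The list also holds genes that many cell types use, such as the actin crosslinkers Flna and Actn1, and its sum was 3176 to 4908 CPM in WT tumors, against 3002 to 4566 CPM in null tumors. The other gene at that threshold, Hspb6, a small heat shock protein, had a log2 fold change of 1.31 that was 0.51 without null 7, where it had 65.3 CPM against 10.85 to 18.8 CPM in the other null tumors.

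Of 9 SRF, myocardin and mural transcription factors 8 were tested, and Myocd, which encodes myocardin, did not pass the filter on low counts. The tested factors lay 4 on each side of 0, with a median of 0.05 and 0 called by edgeR, DESeq2 or limma-voom. Those above 0 were Srf, Mrtfa, Mrtfb and Tead1, and those below 0 were Fhl2, Gata6, Foxs1 and Tbx18. Fhl2, a cofactor of SRF (-0.58), and the pericyte factor Foxs1 (-1.09, from 8.76 ± 1.81 to 4.10 ± 2.03 CPM) were lower at an unadjusted p under 0.05. Tbx18, another mural factor, had -1.58 (SE 0.88, edgeR adjusted p = 0.354) at low levels. Its means went from 1.64 ± 1.24 to 0.532 ± 0.424 CPM, with 0 CPM in null 7, and the groups overlapped. Without null 7, 3 of the 8 factors, Fhl2, Foxs1 and Tbx18, were below 0 (median 0.25), beside 52.3% of all genes. Of 18 genes of PDGF, TGF-beta and angiopoietin signals to mural cells 14 were below 0 (median -0.28). None was called by edgeR, DESeq2 or limma-voom, and 1 was lower at an unadjusted p under 0.05: Angpt1, the ligand that pericytes give to endothelium (-1.36, from 7.19 ± 3.16 to 2.80 ± 1.43 CPM, edgeR adjusted p = 0.246). The endothelin receptor Ednra had -1.02 and Angpt2 -1.10. Without null 7, 10 of the 18 were below 0 (median -0.15), beside 52.3% of all genes. At an unadjusted edgeR p under 0.05, 2 were then lower, beside 8.61% of all genes, and 2 higher, Pdgfa (1.11) and Jag1 (0.85). Without both WT 3 and null 7, 15 of the 18 were below 0 (median -0.34), beside 51.1% of all genes, with 2 lower and 0 higher at that threshold.

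Markers of the neighbouring cells were read in the same way. Of 12 endothelial markers 11 were below 0 (median -0.71), with 4 at an unadjusted edgeR p under 0.05, 0 called by edgeR and limma-voom and 1, Egfl7, by DESeq2. Egfl7, a secreted endothelial factor, had a log2 fold change of -1.33, Ramp2 -1.07 and the tight junction gene Cldn5 -1.59. The summed endothelial level was 458 to 891 CPM in WT tumors, against 107 to 486 CPM in null tumors. Of 12 fibroblast markers 12 were below 0 (median -1.0), with 3, Mfap5 (-1.38), Fap (-1.56) and Lum (-1.72), at an unadjusted edgeR p under 0.05 and 0 called by edgeR, DESeq2 or limma-voom. Their sum was 2384 to 10070 CPM in WT tumors, against 410.5 to 4843 CPM in null tumors. Without null 7 the medians were -0.45 for endothelial and -0.71 for fibroblast markers. In that fit 5 of 12 endothelial and 3 of 12 fibroblast markers were lower at an unadjusted edgeR p under 0.05, beside 8.61% of all genes. Without both WT 3 and null 7, the fit in which 5 of 10 members were lower at an unadjusted p under 0.05, so were 7 of 12 fibroblast markers (median -0.86) and 3 of 12 endothelial markers (median -0.47), beside 6.59% of all genes. In the same fit, 1 of 12 further pericyte genes was lower at that threshold (median -0.45, 11 below 0). Of the further contractile genes it was 2 of 19 (median 0.02, 9 below 0). The part of endothelial cells and fibroblasts in the members' difference was not tested.

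Skeletal muscle also makes desmin, so its markers were read beside Des. Of 12 listed genes 3 passed the filter on low counts, Pvalb was at 0 in all tumors, and the summed level was 15.2 to 60.5 CPM in WT tumors, against 10.95 to 18.1 CPM in null tumors. The highest sum was in WT 3, where Des had 25.2 CPM, the lowest of the WT tumors. Much of this sum was 1 gene, Tnni2, with 45.2 CPM in WT 3 and means of 25.6 CPM in WT and 10.8 CPM in null tumors. The 3 tested genes, Acta1, Mylpf and Tnni2, were below 0 (median -1.24), beside 52.2% of all genes. At an unadjusted edgeR p under 0.05, 2 of them, Acta1 and Tnni2, were lower, beside 10.0% of all genes. Acta1, skeletal actin, had 11.9 CPM in WT 3 and at most 2.10 CPM elsewhere, with a log2 fold change of -3.71 that edgeR did not call (adjusted p = 0.197) and DESeq2 did; Tnni2 had -1.24. Glial markers, read because Cspg4 also marks glial precursors, summed to 26.2 to 80.2 CPM in WT tumors, against 48.6 to 69.8 CPM in null tumors. Sox10 and Gfap did not pass the filter. Much of the sum was Mbp, with a mean of 35.7 CPM in WT and 53.1 CPM in null tumors. Of the 6 tested, 2 were below 0 and 4 above. At an unadjusted edgeR p under 0.05, S100b (-2.17, edgeR adjusted p = 0.233) and Fabp7 (-2.30, edgeR adjusted p = 0.237) were lower, beside 10.0% of all genes, and 0 were higher. Acinar markers summed to 21.3 to 531 CPM and 7.94 to 318 CPM. The 10 epithelial markers had a median log2 fold change of 0.05, with 0 at an unadjusted p under 0.05.

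**Figure D5:**
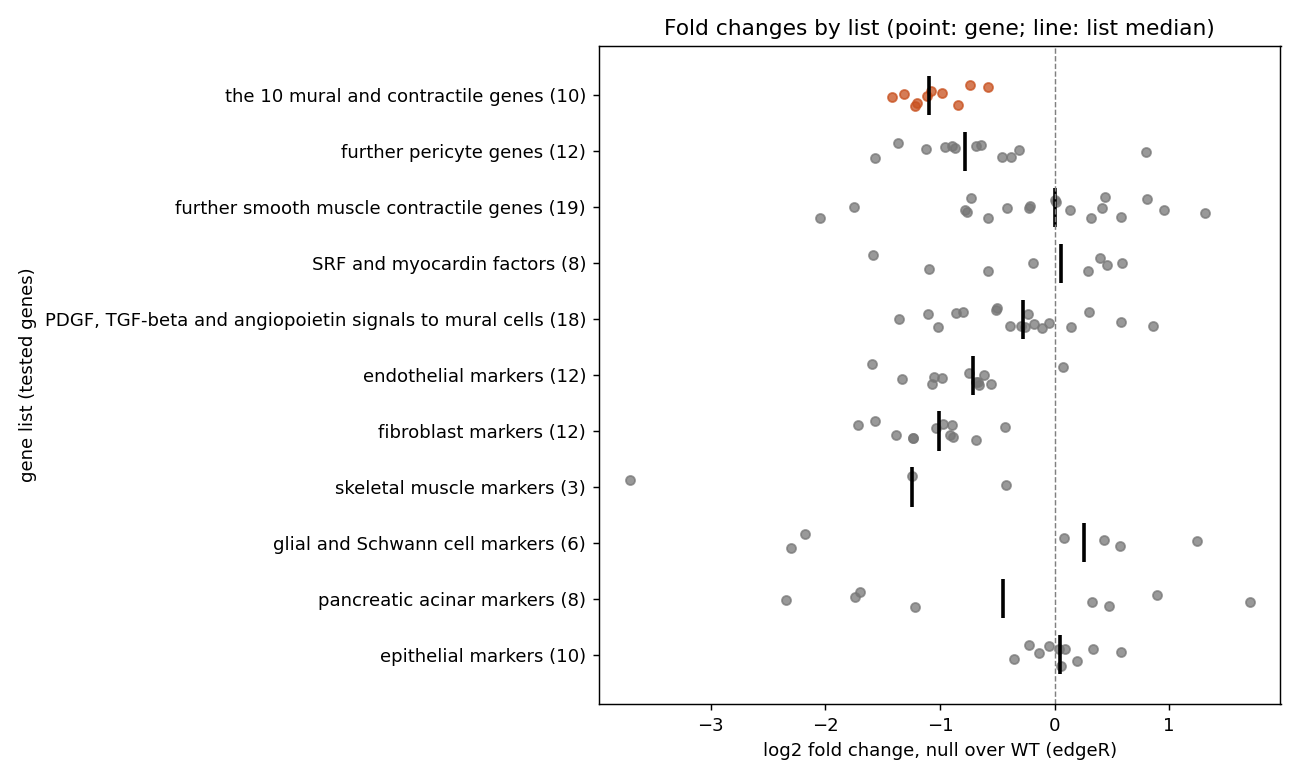
Log2 fold change, null over WT, from the edgeR fit (horizontal axis) of each tested gene of the 10 mural and contractile genes (orange) and of 10 further lists (grey); the number of tested genes is in brackets and black lines are list medians. Medians lie at -1.09 for the 10 genes, -0.78 for further pericyte genes, -1.0 for fibroblast and -0.71 for endothelial markers, and at 0.00 for further contractile and 0.05 for epithelial genes. That of the 3 tested skeletal muscle markers lies at -1.24.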

How the data were processed

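Estimated counts per Ensembl gene were deposited by the authors for 9 whole pancreatic tumors, unnormalized, and per the submitters' processing notes were made with Salmon 1.4.0 on GRCm38 (mm10). RNA was column-purified from frozen tumors and made into mRNA libraries, per the labels' protocols. Not given in the sources used here are the annotation release and the strandedness of the libraries. Of 54453 rows 54131 were given a symbol and 0 lacked an identifier. Counts were rounded, filtered with filterByExpr (minimum count 10, minimum total 15) and TMM-scaled, and the groups were compared by the quasi-likelihood test of edgeR 4.0.16 (R 4.3.3), calling genes at a Benjamini-Hochberg adjusted p under 0.05 over 16169 genes. Log2 CPM used a prior count of 2. SE is the log2 fold change divided by the square root of F. Ratios were tested by exact permutation over 126 splits, and over fewer where tumors were left out. Total counts ranged from 10145830 to 27596832, and the common biological coefficient of variation between tumors was 0.494. The fit was tested on simulated data.

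The members, lists and tests were chosen with earlier results of these data known. Genes named were all members, Scrib, Pecam1 and Col1a1, up to 3 genes of smallest p per list, and the 5 genes most alike to Rgs5, Acta2 and Des among those with mean log2 CPM of at least 1. Notch3, and genes named only to describe a list, were added after their values were seen. Coordinates and exon lengths are from GENCODE M21 on GRCm38, promoters from RefSeq on GRCm38.p6. Alternatives were other scalings (RLE, upper quartile, total count), filters and tools (DESeq2 1.42.0, limma-voom 3.58.1), and tumors left out.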

Additional observations from a re-analysis of the deposited data

Results flagged for a closer look

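In 4 of 26 groups of values checked (10 members and 3 ratios, each in both groups), 1 tumor lay further from its nearest neighbour, as a share of the group's range, than Dixon's 95% critical value of 0.710 for 5 samples; chance flags about 1 in 20 such groups. All 4 were tumor null 7, for contractile genes in the null group. The gap was 0.731 of the range for Acta2 (log2 CPM 3.56 in null 7, against 6.10 to 7.03 in the other null tumors), 0.798 for Tagln (3.27 against 6.58 to 7.41), 0.719 for Myh11 (-0.32 against 1.80 to 2.63) and 0.740 for Des (1.36 against 4.55 to 5.67). The 10 genes share tumors, so these 4 are not independent.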

How the results depend on the processing

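Each member had 17 alternatives, and in all 170 the log2 fold change stayed below 0 and the adjusted p above the threshold, so 0 members were called throughout. Over all genes, 2 were called (edgeR), 7 with no filter, 625 by DESeq2, 0 without both WT 3 and null 7, and 0 to 1 when each tumor was left out. Counted after seeing the data, the members lower at an unadjusted p under 0.05 numbered 4, 2 with total count scaling, and 1 to 5 when each tumor was left out. Fits with a tumor left out also hold fewer tumors, and the cause of these shifts was not tested. The log2 ratio of Rgs5 to Pecam1 differed by -0.08, and reversed without WT 2 (0.098), WT 3 (0.009) or null 14 (0.109). That of Acta2 to Col1a1 differed by -0.74, and by -1.139 without WT 2, where the exact permutation p, not adjusted over the ratios, was 0.0357. With any other single tumor left out that p was 0.114 to 0.321. That of Myh11 to Rgs5 differed by 0.10, and reversed without WT 3 (-0.834), null 14 (-0.164) or both WT 3 and null 7 (-0.665). Left-out ranges were -1.139 to -0.494 for Acta2 to Col1a1, -0.834 to 0.507 for Myh11 to Rgs5, -0.235 to 0.109 for Rgs5 to Pecam1. No paired analysis was possible because the groups share no replicate number. Low counts limit Cnn1 and Myh11 (2 and 14 estimated counts in null 7).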
